A study of Mus musculus with 2 samples.

Results

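The miR-30 family of the mouse brain was examined in small RNA libraries of young and old animals. Its 5 members, mmu-miR-30a, mmu-miR-30b, mmu-miR-30c, mmu-miR-30d and mmu-miR-30e, were taken from the known miRNAs of the study as the names without a star. For each member the counted tag was found first, that is, the distinct sequence whose reads in both libraries equal the raw counts listed for that name. All tags with the same first 18 bases were then added to it, and each tag went to the member it matched for the longest stretch. This gave 626 of the 789591 distinct tags of both libraries, and 5 of the 336 known miRNAs without a star that could be tied to a tag. The young library combined the cDNA libraries of whole brains from 2 male C57BL/6J mice of 5 months, and the old library those of 2 male C57BL/6J mice of 24 to 25 months. Both groups were adults of this inbred strain, and the labels name no treatment or transgene. With 1 sequenced library per age there was no replicate error, so every interval and p-value below covers the counting of reads in 2 libraries and not the spread between animals. Reads were PCR products without molecular identifiers, so the counting intervals are smaller than the full error.

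MiRNAs are short RNAs that are cut from a hairpin precursor by Drosha and Dicer and loaded into an Argonaute protein. The strand that is kept is the guide, and the other is the partner or star strand. Bases 2 to 8, the seed, pair with target mRNAs, so miRNAs that share a seed are predicted to share many targets. The miR-30 guides are broadly expressed in mammals, including in neurons, where the mRNA of the growth factor Bdnf has been described as a target of miR-30a.

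All 5 members carried the same seed, and 1 other counted known miRNA, mmu-miR-384-5p, shared it. The counted tags of mmu-miR-30a, mmu-miR-30e, mmu-miR-30c and mmu-miR-384-5p are shown from 5′ to 3′ with the seed in capitals, because they show which part of the guide the family shares and which part tells its members apart. Each was equal to the mature sequence in RefSeq.
mmu-miR-30a: tGTAAACAtcctcgactggaag
mmu-miR-30e: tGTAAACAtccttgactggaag
mmu-miR-30c: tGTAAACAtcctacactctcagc
mmu-miR-384-5p: tGTAAACAattcctaggcaatgt
Counted from 1 at the 5′ end, mmu-miR-30e differed from mmu-miR-30a by C13T alone. The counted tags of mmu-miR-30a and mmu-miR-30d were equal at 21 of 22 positions, and those of mmu-miR-30d and mmu-miR-30e at 20 of 22. The members therefore formed one close group of mmu-miR-30a, mmu-miR-30d and mmu-miR-30e and another of mmu-miR-30b and mmu-miR-30c, whose first 18 bases were the same. Between the groups the first 11 or 12 bases were shared. Only 5 young and 10 old reads matched mmu-miR-30b and mmu-miR-30c for equally long, and these entered the family sum alone.

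The 6 precursors lay in 3 pairs on NCBIM37. Mir30a (chr1:23279108-23279178, plus strand) and Mir30c-2 (chr1:23298540-23298623, plus strand) were 19361 bases apart, and neither lay within another annotated gene. Mir30e (chr4:120445211-120445302, minus strand) and Mir30c-1 (chr4:120442139-120442227, minus strand) were 2983 bases apart, both in introns of Nfyc, which encodes a subunit of the transcription factor NF-Y and is read from the same strand. Mir30d (chr15:68172770-68172851, minus strand) and Mir30b (chr15:68168977-68169072, minus strand) were 3697 bases apart, and neither lay within another annotated gene. Each guide tag had 1 perfect match in the genome except that of mmu-miR-30c, which matched both of its precursors on chromosomes 1 and 4, so guide reads of mmu-miR-30c could not be given to a locus.

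The family was led by mmu-miR-30a in both libraries, and its levels spanned more than 2 orders of magnitude. Levels are given in RPM, the reads scaled to the total reads of the library and multiplied by 1e6, with exact Poisson intervals of 95%. For mmu-miR-30a, 20605 young and 16619 old reads gave 4555 RPM (4493 to 4618) in the young and 2496 RPM (2458 to 2534) in the old library. It held 63.3% of the family's reads in the young and 59.8% in the old library and ranked 25 and 29 among the counted known miRNAs. For mmu-miR-30d, 6988 and 5916 reads gave 1545 RPM (1509 to 1582) and 888 RPM (866 to 911). For mmu-miR-30e, 4016 and 4195 reads gave 888 RPM (861 to 916) and 630.0 RPM (611 to 649). The order mmu-miR-30a, mmu-miR-30d, mmu-miR-30e, mmu-miR-30c, mmu-miR-30b was the same in both libraries, and no interval of a member reached that of its neighbour in the same library. For mmu-miR-30c, 874 and 952 reads gave 193 RPM (181 to 206) and 143 RPM (134 to 152). For mmu-miR-30b, 71 and 85 reads gave 15.7 RPM (12.3 to 19.8) and 12.8 RPM (10.2 to 15.8), and these intervals overlapped between the libraries. The guides of 1 family differ in ligation and amplification, so levels of different miRNAs carry a further error that was not measured.

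**Figure D1:**
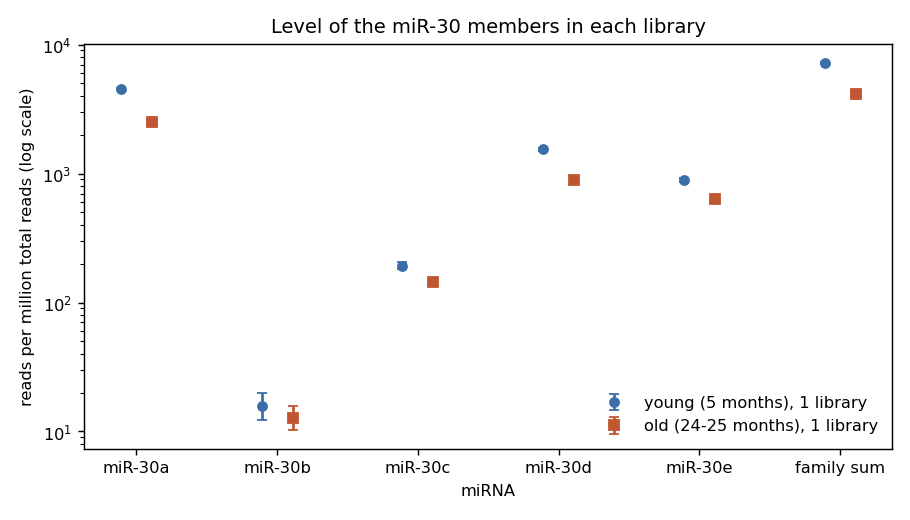
RPM, reads scaled to total reads (log axis), of each miR-30 member and of the family sum, as points for the young and squares for the old library, with exact 95% Poisson intervals. mmu-miR-30a leads at 4555 and 2496 RPM, mmu-miR-30b is lowest at 15.7 and 12.8 RPM, and the intervals of mmu-miR-30b alone overlap between the libraries.

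Scaled to total reads, the family was lower in the old library, by 1.73-fold for its sum. The sum was 32559 reads or 7198 RPM (7120 to 7277) in the young and 27777 reads or 4172 RPM (4123 to 4221) in the old library, which is 0.720% and 0.417% of all reads. Its log2 ratio of old to young was -0.79 (exact 95% interval -0.81 to -0.76). Of the members, mmu-miR-30a and mmu-miR-30d were the lowest relative to young, at a log2 ratio of -0.87 (-0.90 to -0.84) and -0.80 (-0.85 to -0.75). mmu-miR-30e followed with -0.49 (-0.56 to -0.43) and mmu-miR-30c with -0.43 (-0.57 to -0.30). The log2 ratio of mmu-miR-30b was -0.30, and its interval from -0.77 to 0.18 held 0, so a difference was not detectable at this depth.

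By the random sampling model that the study used, 4 of the 5 members were lower in the old library with an unadjusted p under 0.05, and 0 were higher. The background was of the same kind. Of the 267 counted known miRNAs with at least 10 reads in a library, 68.5% were lower with a p under 0.05 and 9.74% were higher, so 4 of 5 is close to the share over all miRNAs. With TMM factors in place of total reads these shares were 31.8% lower and 39.0% higher. None of the 5 members was at least 2-fold lower, against 31.1% of all 267. The p of mmu-miR-30b was 0.19 (0.22 after Benjamini-Hochberg adjustment over the 267, and 0.22 in the exact binomial test). That of mmu-miR-30c was 8.4e-11 (adjusted 1.81e-10, exact binomial 1.55e-10), and those of mmu-miR-30a, mmu-miR-30d and mmu-miR-30e were smaller. The median log2 ratio over the 267 miRNAs was -0.72, with the middle 50% of values from -1.09 to -0.20. All 5 members lay inside that middle range. mmu-miR-30a and mmu-miR-30d were below the median, with 38.2% and 45.3% of the miRNAs lower than they were. mmu-miR-30e, mmu-miR-30c and mmu-miR-30b were above it, with 60.7%, 62.2% and 69.3% lower.

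**Figure D2:**
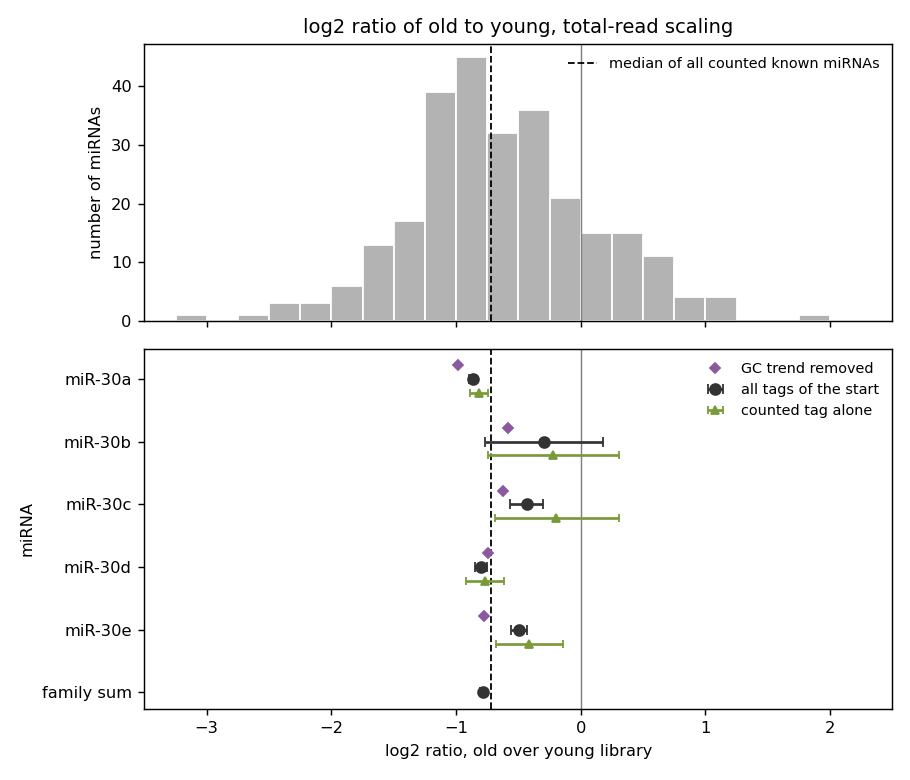
Upper panel: number of counted known miRNAs with at least 10 reads in a library, by log2 ratio of old to young under total-read scaling, with their median of -0.72 as a dashed line. Lower panel: the same ratio for each member and the family sum from all tags (circles) and from the counted tag alone (triangles), with exact 95% intervals, and after removal of the linear trend on GC content (diamonds, no interval). The circles run from -0.87 for mmu-miR-30a to -0.30 for mmu-miR-30b, on both sides of the median.

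The direction of 3 members depended on the scaling. TMM factors of edgeR and size factors of DESeq2 raised every log2 ratio by 0.71 and 0.72, which sets the middle of the known miRNAs near 0. Under TMM factors, mmu-miR-30a (-0.16) and mmu-miR-30d (-0.09) were still lower in the old library, whereas mmu-miR-30b (0.41), mmu-miR-30c (0.28) and mmu-miR-30e (0.22) were higher. Under both factors 2 members were lower and 2 were higher with a p under 0.05. The let-7 family took 34.0% of young and 48.9% of old reads. With these left out of the depth, mmu-miR-30b was at 0.07 and mmu-miR-30c at -0.07, and the family sum was still lower at -0.42. The assumed spread between replicate libraries of an age set the p of edgeR's exact test. With an assumed coefficient of variation of 0.1, this test would give the family sum a p of 1.3e-04. Of the 5 members, 4 would be lower with a p under 0.05, against 56.9% of all 267 miRNAs. At 0.2, the p of the family sum would be 0.057. Then 1 of the 5 members, mmu-miR-30a, would be lower with a p under 0.05, against 34.8% of all 267.

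Differences between members do not depend on the scaling. Of the 10 pairs of members, 7 had a 95% interval of the difference in log2 ratio that left out 0. The 10 pairs reuse the same 5 members. The same share was not computed over pairs of the 267 known miRNAs, so 7 of 10 cannot be called particular to the family. mmu-miR-30a was lower relative to young than mmu-miR-30e by 0.37 on the log2 scale (interval of the difference -0.44 to -0.30), although their counted tags differ by 1 base. As a result mmu-miR-30a had 5.13 reads for each mmu-miR-30e read in the young and 3.96 in the old library. The difference between mmu-miR-30a and mmu-miR-30d was -0.07 (-0.13 to -0.01) as counted. The pairs whose interval held 0 were mmu-miR-30b and mmu-miR-30c (0.14, -0.34 to 0.61), mmu-miR-30b and mmu-miR-30e (0.20, -0.26 to 0.66), and mmu-miR-30c and mmu-miR-30e (0.06, -0.09 to 0.21). The counted tags also differ in GC content. Over the 267 miRNAs the log2 ratio changed by -0.37 for each 10 percentage points of GC, and the counted tags of mmu-miR-30d (50% GC) and mmu-miR-30e (40.9%) lie on either side of mmu-miR-30a (45.5%). With the linear trend removed, mmu-miR-30d and mmu-miR-30e differed by 0.03 instead of -0.30, and mmu-miR-30a and mmu-miR-30e by -0.20 instead of -0.37. The difference between mmu-miR-30a and mmu-miR-30d grew from -0.07 to -0.24, and that between mmu-miR-30c and mmu-miR-30e from 0.06 to 0.16. Over the 10 pairs the difference was smaller for 7, larger for 2 and unchanged for 1. Whether GC content has a part in the differences was not tested further.

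The counted tag, the mature sequence that the published count rests on, was a small part of most members. It held 17.7% of the reads of mmu-miR-30a in the young and 18.4% in the old library, 10.9% and 11.2% of mmu-miR-30d, 7.21% and 8.51% of mmu-miR-30c, and 5.48% and 5.79% of mmu-miR-30e. For mmu-miR-30b alone it was the major form, with 80.3% (Wilson 95% interval 69.6 to 87.9) and 84.7% (75.6 to 90.8). All reads of mmu-miR-30e thus came to 18.3 times its counted tag in the young library, and those of mmu-miR-30b to 1.25 times. By the counted tags alone, 63 young and 81 old reads of mmu-miR-30c gave a log2 ratio of -0.20 (-0.69 to 0.30), an interval that held 0.

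For the other 4 members the single form with the most reads was a longer one of 24 bases that matches the precursor to its end. The most-read forms of 3 of them are shown with the bases beyond the counted tag in capitals, because these bases set the major product apart from the listed one.
mmu-miR-30a, 24 bases: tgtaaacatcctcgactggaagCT
mmu-miR-30e, 24 bases: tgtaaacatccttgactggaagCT
mmu-miR-30c, 24 bases: tgtaaacatcctacactctcagcT
This form held 5575 young and 4382 old reads of mmu-miR-30a, which is 27.1% and 26.4% of that member. It held 2097 and 2059 reads of mmu-miR-30e (52.2% and 49.1%). It held 599 and 659 reads of mmu-miR-30c (68.5% and 69.2%). For mmu-miR-30d the form of 24 bases held 2469 and 2007 reads (35.3% and 33.9%). Reads longer than the counted tag made up 64.3% and 63.7% of mmu-miR-30a, 79.9% and 81.8% of mmu-miR-30c, 76.0% and 77.2% of mmu-miR-30d, and 86.4% and 86.1% of mmu-miR-30e, against 5.63% and 4.71% of mmu-miR-30b. The 3 forms shown end in T, and the 3′ adapter that was removed from the reads also begins with T, so a form of 23 bases whose adapter was cut 1 base late cannot be told apart from a form of 24 bases. The mean length was 22.8 bases for mmu-miR-30a in both libraries and 23.6 bases for mmu-miR-30e in both libraries, so the length profiles differed between members far more than between ages.

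**Figure D3:**
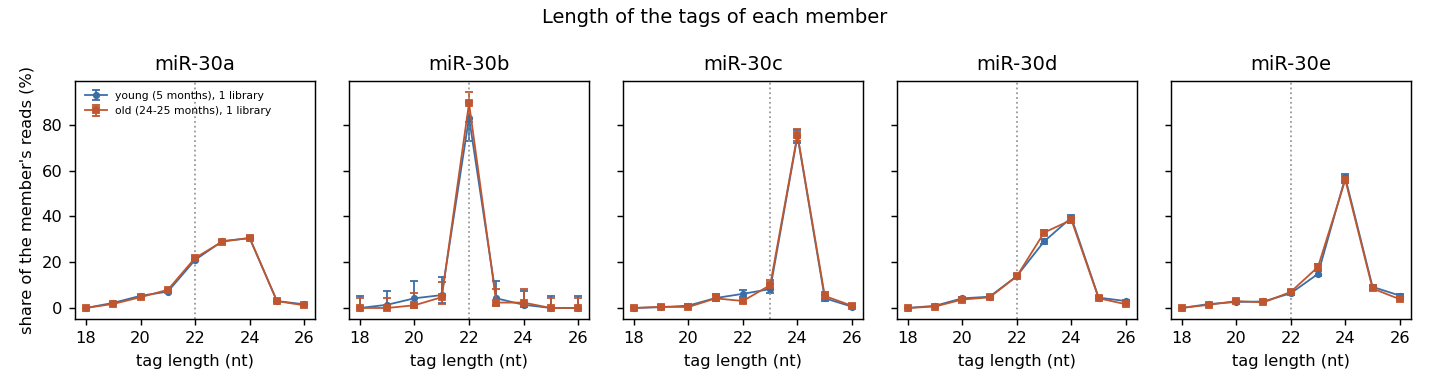
Share of each member's reads (%) by tag length (nt), with Wilson 95% intervals, in the young (circles) and the old library (squares). The dotted line marks the length of the counted tag. mmu-miR-30b peaks at its counted length of 22, mmu-miR-30c, mmu-miR-30d and mmu-miR-30e peak at 24, and mmu-miR-30a is spread over 22 to 24.

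Tags were also sorted by what followed the last base that matched the precursor. Most reads of every member matched the precursor to their end, from 67.6% for mmu-miR-30d in the old library to 90.6% for mmu-miR-30b in the old library. Tails of A alone were the most frequent extra bases of mmu-miR-30a, mmu-miR-30c, mmu-miR-30d and mmu-miR-30e. On mmu-miR-30e in the young library, tails of T alone were nearly as frequent, at 10.7% (9.76 to 11.7). The share of tails of A was higher in the old library for mmu-miR-30a, mmu-miR-30d and mmu-miR-30e, but not for mmu-miR-30c. mmu-miR-30d had 18.8% (17.9 to 19.8) in the young and 23.0% (21.9 to 24.1) in the old library. mmu-miR-30a had 13.9% (13.4 to 14.4) and 15.5% (14.9 to 16.04). mmu-miR-30e had 11.4% (10.4 to 12.4) and 14.3% (13.3 to 15.4). The intervals of mmu-miR-30a, mmu-miR-30d and mmu-miR-30e did not overlap between the libraries. Those of mmu-miR-30c did, at 7.32% (5.78 to 9.24) and 6.72% (5.30 to 8.49). How many other known miRNAs had intervals that did not overlap was not counted, so the lack of overlap cannot be called particular to these members. mmu-miR-30b had 1 and 2 such reads. The higher share in mmu-miR-30d lay mostly in 1 form, the counted tag followed by a single A, with 903 young and 1027 old reads, that is, 12.9% and 17.4% of the member. Its log2 ratio to total reads was -0.37 (-0.50 to -0.24), against -0.80 for all reads of mmu-miR-30d.

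Over all miRNAs the share of such tails was about as often lower as higher in the old library. Over the 159 known miRNAs with at least 100 reads in each library, the median share of reads with a tail of A was 7.07% in the young and 7.33% in the old library, and 54.7% of them had the higher share in the old library. In the old library mmu-miR-30d ranked 9, mmu-miR-30a 22, mmu-miR-30e 27 and mmu-miR-30c 87 by this share. Tails of T alone were most frequent on mmu-miR-30e, with 10.7% in the young and 10.5% in the old library, and 5.55% and 5.49% on mmu-miR-30d. On mmu-miR-30e, the form of 24 bases followed by a single T held 285 of 429 young and 278 of 442 old such reads. Because the adapter begins with T, a single added T cannot be told apart from an adapter cut 1 base late. Since only reads that SOAP aligned to the genome are in the files, longer tails may be under-counted.

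**Figure D4:**
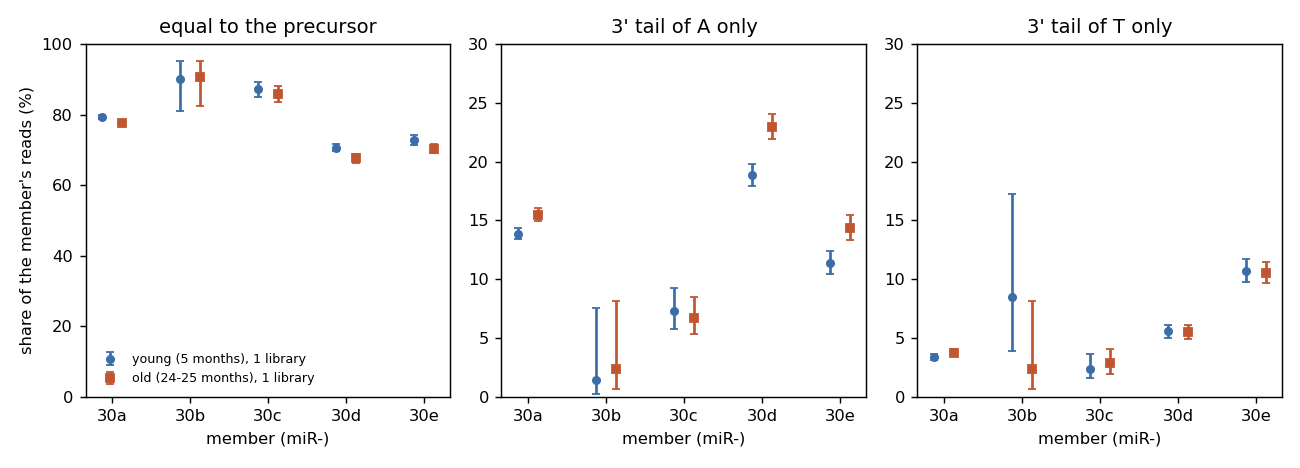
Share of each member's reads (%) that equal the precursor to their end, end in a tail of A only, or end in a tail of T only, in the young (circles) and the old library (squares), with Wilson 95% intervals. The axes start at 0 and the first panel has a wider range. Tails of A are most frequent on mmu-miR-30d, 18.8% in the young and 23.0% in the old library, and overlap between the libraries for mmu-miR-30b and mmu-miR-30c.

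The 5′ ends, which set the seed, hardly varied. Reads that begin 1 base later than the counted tag, and thus carry a shifted seed, were 1.05% (0.92 to 1.20) of mmu-miR-30a in the young and 1.32% (1.16 to 1.51) in the old library. They were 2.45% (2.02 to 2.97) and 2.91% (2.45 to 3.46) of mmu-miR-30e and 0.143% and 0.270% of mmu-miR-30d. Intervals overlapped between the libraries for all 3. For mmu-miR-30b such reads were 0 of 71 and 0 of 85, and for mmu-miR-30c there were 0 in the young and 1 in the old library.

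The partner strands are shown because a pair of them tells the 2 precursors of mmu-miR-30c apart, which its guide cannot. These are their counted tags.
mmu-miR-30c-2*: ctgggagaaggctgtttactct
mmu-miR-30c-1*: ctgggagagggttgtttactcc
mmu-miR-30a*: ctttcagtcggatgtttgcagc
mmu-miR-30e*: ctttcagtcggatgtttacagc
mmu-miR-30c-2* had 791 young and 616 old reads and mmu-miR-30c-1* had 55 and 52. The precursor on chromosome 1 thus gave 93.5% (91.6 to 94.97) and 92.2% (89.9 to 94.01) of these partner reads, a share that overlapped between the libraries. The log2 ratio of mmu-miR-30c-2* was -0.92 (-1.07 to -0.76), near that of mmu-miR-30a from the same chromosome, with a difference of 0.05 between them (-0.10 to 0.21). This nearness depended on the tag rule. By counted tags alone mmu-miR-30c-2* (260 young and 160 old reads) was at -1.26 and mmu-miR-30a at -0.82. The ratio of mmu-miR-30d from chromosome 15, -0.80, also lay inside the interval of mmu-miR-30c-2*, so the nearness was not particular to the locus. The log2 ratio of mmu-miR-30c-1* was -0.64 (-1.21 to -0.07), and it differed from mmu-miR-30e, its neighbour in Nfyc, by 0.14 (-0.41 to 0.69). On chromosome 15, mmu-miR-30d was lower relative to young than mmu-miR-30b by 0.50 on the log2 scale (interval of the difference -0.96 to -0.04), and by 0.16 with the GC trend removed. Their partner strands, mmu-miR-30d* and mmu-miR-30b*, differed by 0.15 with an interval of -0.92 to 1.22, too wide to show a difference of that size.

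The ratio of partner to guide differed between partner strands by about 3 orders of magnitude. mmu-miR-30d* was nearly absent, with 14 young and 16 old reads, or 0.2003 (exact 95% interval 0.109 to 0.336) and 0.270 (0.154 to 0.440) per 100 guide reads. mmu-miR-30a* had 766 and 832 reads, or 3.72 (3.45 to 3.996) and 5.01 (4.66 to 5.37) per 100 guide reads. mmu-miR-30e* had 576 and 590 reads, or 14.3 (13.1 to 15.7) and 14.1 (12.9 to 15.3). mmu-miR-30c-2* reached 90.5 (82.1 to 99.8) and 64.7 (58.4 to 71.7) per 100 guide reads of mmu-miR-30c. mmu-miR-30b* exceeded its guide, with 214 and 220 reads, or 301 (229 to 400.0) and 259 (201 to 336) per 100. The strand named as the partner of mmu-miR-30b was therefore the one read more often in both libraries.

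Between the ages, with all tags counted, the interval of the change in partner-to-guide ratio left out 0 for 2 of the 6 partner strands. The same share was not computed over the other known partner strands, so 2 of 6 cannot be called particular to the family. For mmu-miR-30c-1* and mmu-miR-30c-2* the guide reads were pooled over both precursors, so their ratios do not give the strand balance of 1 precursor. mmu-miR-30a* rose against its guide by 0.43 on the log2 scale (0.28 to 0.57), and mmu-miR-30c-2* fell by 0.48 against the guide of mmu-miR-30c (interval -0.69 to -0.28). For the other 4 the interval of the change held 0. These ratios depended on how tags were counted. When every tag equal to a stretch of the precursor was given to its arm, whatever its start, the change of mmu-miR-30a* was 0.23 (0.07 to 0.38) and that of mmu-miR-30c-2* -0.48 (-0.69 to -0.27). The GC trend was not removed from either change. With the counted tags alone, mmu-miR-30a* came to 5.11 and 6.02 per 100 guide reads, and no interval of that change was computed. By the same count mmu-miR-30b* came to 50.9 and 51.4 per 100 guide reads and no longer exceeded its guide. The opposite held for mmu-miR-30c-2*, which by counted tags alone came to 413 and 198 per 100 and exceeded its guide, and mmu-miR-30e* came to 49.1 and 45.7. The partner arms also began less precisely than the guide arms. Among tags equal to the precursor, 31.8% (28.5 to 35.3) of mmu-miR-30a* reads in the young and 27.2% (23.9 to 30.6) in the old library began 1 base later than the counted tag, against 1.02% and 1.06% of its guide.

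**Figure D5:**
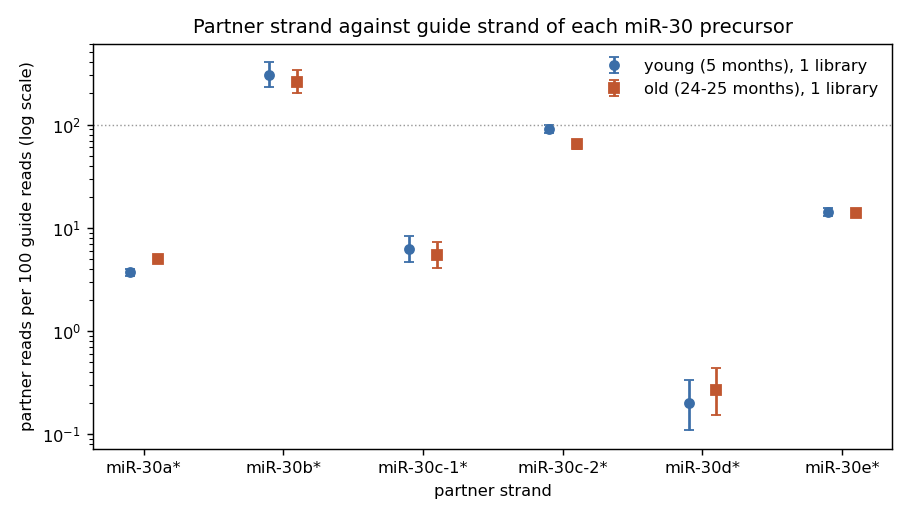
Partner reads per 100 guide reads (log axis) for the 6 partner strands, in the young (circles) and the old library (squares), with exact 95% intervals, and a dotted line at 100 where partner and guide reads are equal. mmu-miR-30c-1* and mmu-miR-30c-2* are set against the same guide reads of mmu-miR-30c. mmu-miR-30b* lies above the line at 301 and 259, mmu-miR-30d* lies lowest at 0.2003 and 0.270, and mmu-miR-30c-2* goes from 90.5 to 64.7.

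mmu-miR-384-5p, a miRNA of a precursor on the X chromosome that carries the miR-30 seed, was read 117 times in the young and 154 times in the old library, or 25.9 and 23.1 RPM. Its log2 ratio was -0.16 (-0.52 to 0.20), an interval that held 0. By level in both libraries, the known miRNAs nearest to the family sum were mmu-miR-138 (7560 and 4155 RPM), mmu-miR-101a (7821 and 4081 RPM) and mmu-miR-181a (7373 and 3405 RPM). Those nearest to mmu-miR-30a were mmu-miR-378 (4134 and 2291 RPM), mmu-miR-101b (3939 and 2235 RPM) and mmu-miR-9 (4399 and 2989 RPM). Likeness was the distance over 2 log2 levels, 1 per library, so many miRNAs of like abundance would lie near.

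Because members differ by single bases, the reads of mmu-miR-30a with a single substitution were counted. All 52 of the other single substitutions of mmu-miR-30a in its first 18 bases were seen, with a median of 12 young and 13 old reads each and a highest count of 337 and 355, which is 1.64% and 2.14% of mmu-miR-30a. At the position that makes mmu-miR-30d, the other substituted bases had 74 to 118 young and 13 to 101 old reads, against 6988 and 5916 reads of mmu-miR-30d. At the position that makes mmu-miR-30e they had 3 to 27 and 8 to 31 reads, against 4016 and 4195. The part of miscalled bases in the reads of either member was not tested. mmu-miR-30c and mmu-miR-30b differ from mmu-miR-30a at 5 and 7 of 22 positions.

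The libraries held 4523267 young and 6658732 old reads in 372464 and 505732 distinct tags, from 17 to 26 bases long. Undetermined bases in the first 18 were more frequent in the young library, and tags with them were left out of the counts. Allowing them would add 3.92% young and 0.885% old reads to mmu-miR-30a and would move its log2 ratio from -0.87 to -0.91. Markers of brain were abundant, with a summed level of 66625 young and 33501 old RPM over miR-124, miR-9 and miR-128. Blood markers (3 of 3 counted) summed to 606 and 322 RPM, oligodendrocyte markers (4 of 4) to 12280 and 7986 RPM, led by miR-219-3p, and liver miR-122 to 196 and 123 RPM. Muscle markers (2 of 3) summed to 7454 and 10867 RPM, led by miR-1, and miR-126-3p of endothelium could not be tied to 1 tag. The part of the tissue's makeup in the miR-30 levels was not tested, and in whole brain fewer cells of a type and less RNA per cell cannot be told apart.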

How the data were processed

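Whole-brain small RNAs came from 1 young and 1 old library, each combining 2 mice. For each library the authors aligned the adapter-trimmed reads to mm9 with SOAP (version not given in the sources used here) and deposited the read count of each distinct sequence, not normalized. Names came from the study's list of known miRNAs, of which 469 of 558 names were tied to a tag, 199 through a single tag with the listed counts and 270 through the mature sequence (RefSeq, GRCm38.p6) or, for miR-30 partner strands, the place in the precursor, and its columns of fold changes and p-values were not used. The members and lists were chosen with earlier results of these data known. mmu-miR-378 and the other nearest miRNAs follow the rule of the smallest distance over log2 RPM, members left out.

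Counts were summed by the first 18 bases (mmu-miR-30c was one of the names settled by its mature sequence). Tags with undetermined bases there were left out. Total reads served as depth, and 0.5 stood in for a count of 0. The two-sided test was DEGseq's random sampling model, computed from its formula, with Benjamini-Hochberg adjustment over 267 miRNAs and an exact binomial test beside it. No quasi-likelihood fit of edgeR could be made without replicate libraries. Intervals were of 95%: Clopper-Pearson for ratios, Poisson for levels, Wilson for shares, and a normal approximation on the log scale for differences of ratios. A tail was the stretch after the longest match to the precursor, so an added base equal to the genome counted as matching. Precursors were read from NCBIM37 with an annotation of that build. The statistics were run on simulated Poisson counts, which hold no spread between animals and no PCR duplicates. That run cannot show whether the real libraries meet the same assumption. Alternatives were other tag rules, depths, GC correction, an added read and other tests, and assignment by precursor arm was added after seeing the data. Software versions were edgeR 4.0.16 and DESeq2 1.42.0 under R 4.3.3, and scipy 1.17.1 under Python 3.11.15.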

Additional observations from a re-analysis of the deposited data

How the results depend on the processing

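No replicate could be left out, and no paired analysis was possible because each age has 1 library. Over 15 alternatives, the family sum, mmu-miR-30a and mmu-miR-30d were lower in the old library under each, with log2 ratios from -0.89 to -0.07, -0.98 to -0.15 and -0.86 to -0.08. mmu-miR-30e and mmu-miR-30c were lower under 13, and mmu-miR-30b under 12. The exact binomial test and edgeR's exact tests are among these alternatives, but they change p alone. The direction under them was therefore fixed in advance. The reversals came from depth alone. Under TMM factors and DESeq2 size factors mmu-miR-30b was at 0.41 and 0.42, mmu-miR-30c at 0.28 and 0.28, and mmu-miR-30e at 0.22 and 0.22, with 2 members lower and 2 higher by p under 0.05 in place of 4 and 0. Without let-7 reads in the depth, mmu-miR-30b was at 0.0703 and mmu-miR-30c at -0.0660 and no longer past the threshold, nor was mmu-miR-30c by its counted tag alone (-0.20). With the GC trend removed, mmu-miR-30b passed it at -0.58. Of all 267 miRNAs, 31.8% were lower and 39.0% higher under TMM factors.

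In edgeR's exact test the log2 ratios stay as they are and the assumed spread sets p. At a coefficient of variation of 0.1, p was 1.3e-04 for the family sum and 2.6e-05 for mmu-miR-30a. It was 0.37 for mmu-miR-30b, 0.044 for mmu-miR-30c, 1.2e-04 for mmu-miR-30d and 0.017 for mmu-miR-30e. That left 4 members lower with a p under 0.05, against 56.9% of all 267 miRNAs. At a coefficient of variation of 0.2, p was 0.057 for the family sum (-0.79) and 0.30 for mmu-miR-30c (-0.43). It was 0.054 for mmu-miR-30d (-0.80) and 0.23 for mmu-miR-30e (-0.49). That left 1 member lower with a p under 0.05, against 34.8% of all 267 miRNAs. At 0.4, p was 0.35 for the family sum, 0.30 for mmu-miR-30a (-0.87), 0.61 for mmu-miR-30c, 0.34 for mmu-miR-30d and 0.55 for mmu-miR-30e. That left 0 members lower with a p under 0.05, against 3.37% of all 267 miRNAs.

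Partner reads per 100 guide reads moved most. By counted tags alone, in the young and old library, they were 5.11 and 6.02 for mmu-miR-30a*, 50.9 and 51.4 for mmu-miR-30b*, 19.0 and 9.88 for mmu-miR-30c-1*, 413 and 198 for mmu-miR-30c-2*, 0.654 and 0.151 for mmu-miR-30d*, and 49.1 and 45.7 for mmu-miR-30e*. By precursor arm, an alternative chosen after seeing the data, they were 4.41 (young) for mmu-miR-30a*, 8.44 and 7.77 for mmu-miR-30c-1*, 0.384 (young) for mmu-miR-30d*, and 13.1 and 12.6 for mmu-miR-30e*, and the rest stayed within the counting intervals. By counted tags the shift follows from the part of each strand's reads that the counted tag holds. In the young library it held 29 of 214 reads of mmu-miR-30b* and 57 of 71 of its guide. It held 260 of 791 reads of mmu-miR-30c-2* against 63 of 874, and 108 of 576 of mmu-miR-30e* against 220 of 4016. Why these parts differ, and the cause of the shifts by precursor arm, was not tested. Depth limits mmu-miR-30b, mmu-miR-30d* and mmu-miR-30c-1*, each with fewer than 100 reads in a library.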
